A study of Homo sapiens with 29 samples.

Results

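Resistant and parental breast tumours were compared after both had received decitabine, to ask which expression differences between the lines persisted, narrowed or appeared under the drug. The comparison was set by the sample labels: the 3 decitabine libraries of the resistant line were set against the 4 decitabine libraries of the parental line, which is 7 of the 29 libraries of the series. The 8 vehicle libraries, 4 of each line, served as the reference. The other 14 libraries, of tumours given doxorubicin at 1 mg/kg with or without decitabine, entered the same fit. The parental cells are MDA-MB-231, an established line from a human breast cancer without hormone receptors or HER2 amplification, and the resistant line is 1 derivative of it that withstands paclitaxel. Tumours grew orthotopically on both sides of SCID-beige mice, a strain without mature lymphocytes of the T and B lineages. Parental tumours (250000 cells injected, treated from day 6) and resistant tumours (1500000 cells, treated from day 16) received decitabine at 0.4 mg/kg or vehicle for 26 days: 2 treatment cycles, each of 12 days, separated by a rest of 2 days. The line, the number of cells injected and the starting day cannot be told apart. With 1 resistant line, differences describe that line and not resistance in general. Nothing in the labels ties libraries to mice, so tumours of the same mouse may be counted as separate samples. The p-values therefore measure only how far these samples spread, which may be technical.

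Decitabine is a cytidine analogue that is built into DNA and traps DNA methyltransferases, so that methylation at CG dinucleotides is lost as cells divide. Genes silenced by promoter methylation, among them cancer-testis antigens that are otherwise expressed in germ cells, are often switched on by it, and interferon-stimulated genes can follow. Paclitaxel binds tubulin and stabilises microtubules, and resistance to it has been linked to drug efflux pumps, to altered tubulins and to microtubule-binding proteins.

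The 7 decitabine libraries held 3398261 to 5166195 counts, and 13495 of 58302 genes were tested. VIM, CD44, EGFR, AXL and CAV1, which mark the labelled cell line, were expressed in all groups. The 15 genes of that list also include ESR1, PGR, ERBB2, CDH1 and GATA3, expected to be low, so their sum does not identify the line. It was 5470 to 6350 CPM (counts scaled to the library's normalised size) in parental and 6040 to 6310 CPM in resistant decitabine tumours. CD24, also on the list, was low in both lines, with 21 and 0 counts in parental and resistant decitabine tumours. ESR1 had 14 and 12 and PGR 1 and 0. GATA3 was at 28.1 and 49.6 CPM on average (log2 difference 0.82, adjusted p = 4.29e-05, edgeR). CDH1 (E-cadherin), which this line is usually described as lacking, was counted in both lines. On the principal components of 15 libraries (2000 genes), the first component (41.4% of the variance) separated the lines. On the second (19.7%), resistant decitabine 2, the library with the fewest counts, and parental vehicle 3 stood apart at -46.5 and -37.7, and the others lay between -8.62 and 17.8. Results that rest on resistant decitabine 2 are given with and without it. In bulk tumours, fewer cells of a type and less RNA per cell cannot be told apart.

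Under decitabine, the lines differed in 3616 genes (26.8% of those tested), 1849 higher (13.7%) and 1767 lower (13.1%) in resistant tumours. All calls of genes here are at an adjusted p under 0.05 in edgeR's quasi-likelihood test, with adjustment over all genes tested. Of the called genes, 51.1% were higher, and this share was 61.3% under upper-quartile scaling. A difference of at least 1 on the log2 scale was found for 786 of the higher and 413 of the lower genes. The 2 decitabine groups did not overlap in 4201 genes (31.1%), 3124 of them called. Under vehicle, 2718 genes were called (20.1%), 1168 higher and 1550 lower. The larger count under decitabine rested on resistant decitabine 2. Without that library, 2320 genes were called under decitabine (1174 higher, 1146 lower) and 3067 under vehicle.

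Most of what distinguished the lines under vehicle was also seen under decitabine. Of the genes called under vehicle, 2426 (89.3%) had the same sign under decitabine, against 63.2% of all genes tested, and the comparisons share no library. Both comparisons called 1510 genes in the same direction, 634 higher and 876 lower in resistant tumours, which was 55.6% of the vehicle calls and 41.8% of the decitabine calls. Opposite directions were called for 9 genes. Without resistant decitabine 2, the shared calls numbered 1393 (597 higher, 796 lower), or 45.4% of the vehicle and 60% of the decitabine calls. A difference of at least 1 on the log2 scale in both was found for 468 of the 1510 genes, 305 higher and 163 lower. Among genes called under vehicle, the median absolute log2 difference was 0.72 under vehicle and 0.55 under decitabine. Among genes called under decitabine, it was 0.77 under decitabine and 0.41 under vehicle. A gene picked by a call in 1 condition tends to be larger there, so both medians are descriptions. Over all genes, the log2 differences under both treatments had a Pearson r of 0.65 and a Spearman rho of 0.43, over genes, which are not independent replicates.

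Crossing the threshold in 1 condition only is not evidence of a change, and the change itself was tested as the line difference under decitabine minus that under vehicle. It was called for 16 genes (0.119%), and 2640 (19.6%) had an unadjusted p under 0.05. For 11 genes the line difference of vehicle tumours narrowed or turned, for 5 a difference appeared that was not called under vehicle, and none that was called under vehicle was called as widened. The plot of line differences under both treatments shows these 16 genes away from the diagonal. The number varied with the library left out: it was 7 without resistant decitabine 2, 10 without parental vehicle 4, 37 without parental decitabine 4, 42 without resistant decitabine 1, 44 without resistant vehicle 3, 136 without resistant decitabine 3 and 299 without parental vehicle 1. DESeq2 called 297 genes, edgeR without a filter on low counts 1001, and the fit of the 15 vehicle and decitabine libraries alone 1. ITGBL1, FCGRT, FHL1, CLDN4 and PLTP were called in all 15 fits that left out 1 library.

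**Figure D1:**
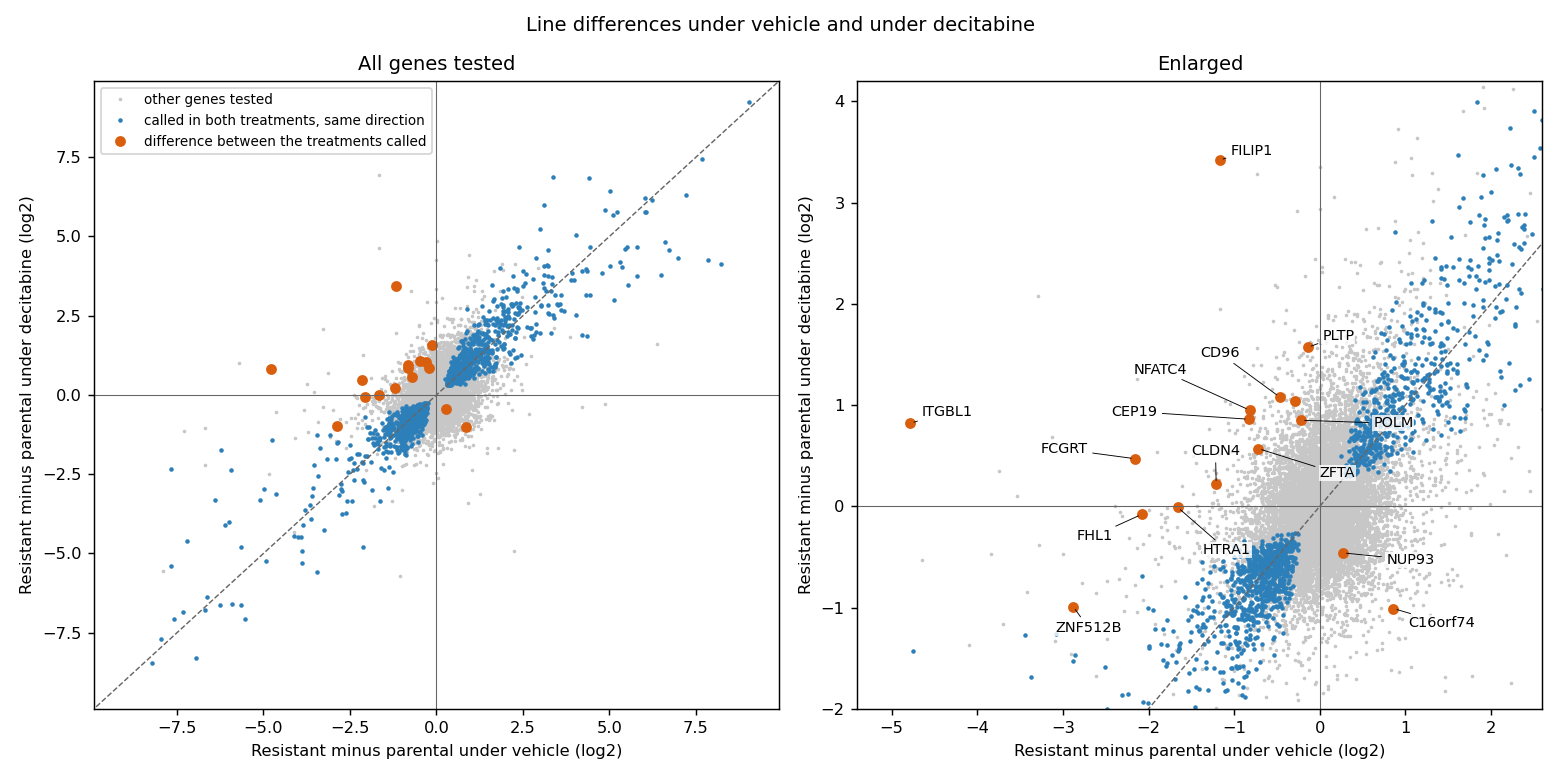
Line differences of 13495 genes (log2, resistant minus parental) under vehicle (x axis) and under decitabine (y axis), whole range at left and enlarged at right. Blue points are the genes called in both with the same direction (1510 with ZNF512B, which is drawn in orange). Orange points are the 16 genes whose line difference differed between the treatments, 14 of them above the dashed line of equality.

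Among persistent genes that reached 5 CPM in a group and did not overlap under either treatment, the 6 with the largest fitted deficits in resistant tumours had no count in any of the 3 resistant decitabine libraries. Sequences before the start of ZNF354C and AMOT are printed here because both genes remained silent in resistant tumours under a drug that acts on CG methylation. They are the 250 bases before the RefSeq start (GRCh38.p14), in lower case with each CG dinucleotide in capitals, ZNF354C at chr5:179060123-179060372 (plus strand) and AMOT at chrX:112840832-112841081 (minus strand):
ZNF354C: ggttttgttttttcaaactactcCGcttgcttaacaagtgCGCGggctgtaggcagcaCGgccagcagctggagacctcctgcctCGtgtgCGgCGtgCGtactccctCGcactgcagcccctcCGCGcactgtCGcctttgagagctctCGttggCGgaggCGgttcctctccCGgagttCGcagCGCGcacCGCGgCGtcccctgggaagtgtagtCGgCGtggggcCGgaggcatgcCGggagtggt
AMOT: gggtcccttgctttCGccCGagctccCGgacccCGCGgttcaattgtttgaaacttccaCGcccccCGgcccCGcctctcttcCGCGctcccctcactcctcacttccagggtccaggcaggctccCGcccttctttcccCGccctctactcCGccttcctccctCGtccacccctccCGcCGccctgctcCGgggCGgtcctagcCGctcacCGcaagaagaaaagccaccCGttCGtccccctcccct
The ZNF354C stretch holds 26 CG dinucleotides and the AMOT stretch 22. The median was 11 over all 27305 RefSeq promoters of the same length, of which 51.9% held 10 or more, and 21 over the 10019 tested genes with an entry, of which 85.4% did. Methylation of these bases was not measured.

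ZNF354C (chromosome 5, 179060415 to 179083537 in GENCODE 29) encodes a zinc finger protein. It was at 10.4, 12.1, 7.8 and 7.66 CPM in the 4 parental decitabine libraries and at 0 in the 3 resistant ones (191 and 0 counts). Taking 3 counts in the whole group as the floor, it was at least 41.9-fold lower in resistant tumours, and under vehicle at least 45.9-fold lower (140 and 0 counts). With counting error in both groups, the exact 95% lower limits were 33.7 and 36.9. AMOT, which encodes angiomotin, a scaffold protein of cell junctions that acts in Hippo signalling, is on chromosome X (112774503 to 112840815). Its levels were 9.68, 8.44, 7.41 and 8.36 CPM in parental decitabine tumours and 0 in all 3 resistant ones, at least 37.1-fold lower. Under vehicle, 1 count stood against 183, a ratio of 180 (95% interval 31.9 to 7150, counting error only). The groups of both genes were fully separated under either treatment.

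GABRE (a GABA-A receptor subunit), TENM1 (a teneurin, a transmembrane protein of cell contacts) and ID4 (an inhibitor of helix-loop-helix transcription factors) followed the same pattern. Under decitabine they had 114, 73 and 51 counts in parental tumours and 0 in resistant tumours. The lower bounds of the fold were 25 for GABRE, 16 for TENM1 and 11.2 for ID4. RNVU1-19, a copy of a U1 small nuclear RNA gene whose reads are shared with near-identical copies, had 22 and 0 counts and lost its call without any 1 of the 3 resistant decitabine libraries or without parental decitabine 1.

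Differences in the other direction persisted as well. PTPRN2, a phosphatase-like protein of secretory vesicles (chromosome 7, 157539056 to 158587788), was at 0.38, 0, 0 and 0 CPM in parental and at 30.4, 12.4 and 22.8 CPM in resistant decitabine tumours. The ratio, from 2 and 299 counts, was 227 (95% interval 62.4 to 1890), and under vehicle it was 297 (52.8 to 11800). CLEC11A, a secreted growth factor with a C-type lectin domain (chromosome 19, 50723329 to 50725718), was at 0.19, 0.384, 0.78 and 0.464 CPM in parental and at 11.3, 41.5 and 21.7 CPM in resistant tumours. The log2 difference was 5.68 (SE 0.46, adjusted p = 1.24e-09, edgeR), and 5.11 without resistant decitabine 2, which had the highest level. Under vehicle it was 5.09.

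KCNU1, a potassium channel of sperm, was at 0 in the 4 parental libraries and at 1.64, 1.7 and 1.06 CPM in the resistant ones, at least 9.63-fold higher. In resistant tumours it fell by 1.93 (log2) with decitabine (adjusted p = 0.0169, edgeR), and the change of its line difference was not called (adjusted p = 0.704). THSD7B had 2 and 89 counts in parental and resistant decitabine tumours (ratio 67.7, interval 18.2 to 567), and CSTA, the protease inhibitor cystatin A, 2 and 47 (35.7, interval 9.36 to 304). TEX41, a long non-coding RNA, was 5.04 higher (log2, SE 0.59, adjusted p = 5.8e-07, edgeR), and 6.28 without parental decitabine 2.

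**Figure D2:**
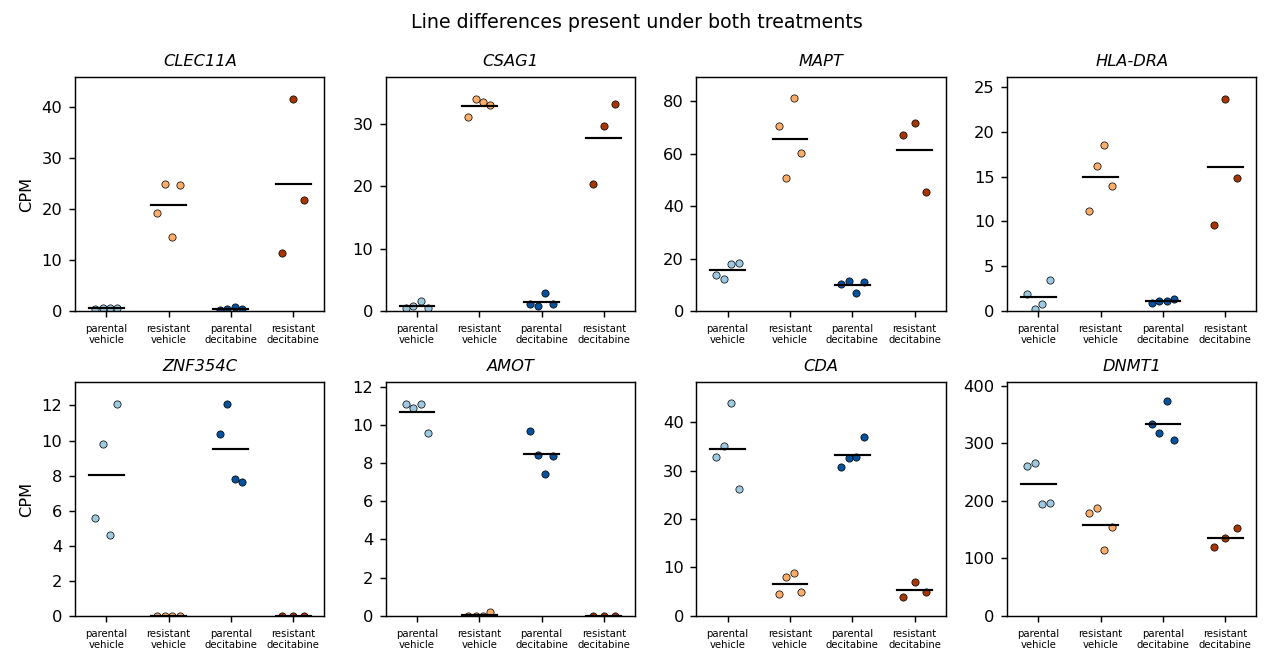
Level (CPM, linear axes from 0) of 8 genes in each library, with bars at group means: parental vehicle and resistant vehicle (4 libraries each), parental decitabine (4) and resistant decitabine (3). CLEC11A, CSAG1, MAPT and HLA-DRA were higher and ZNF354C, AMOT, CDA and DNMT1 lower in the resistant tumours of either treatment, with no overlap between the decitabine groups.

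Of the 11 differences that narrowed or turned, 9 had been lower in resistant tumours under vehicle. The stretches before ITGBL1 and FCGRT are printed because their differences had the largest change among them. They are again the 250 bases before the RefSeq start with CG in capitals, ITGBL1 at chr13:101452425-101452674 and FCGRT at chr19:49512411-49512660 (both plus strand; GENCODE 29 places the first base of the FCGRT gene further upstream):
ITGBL1: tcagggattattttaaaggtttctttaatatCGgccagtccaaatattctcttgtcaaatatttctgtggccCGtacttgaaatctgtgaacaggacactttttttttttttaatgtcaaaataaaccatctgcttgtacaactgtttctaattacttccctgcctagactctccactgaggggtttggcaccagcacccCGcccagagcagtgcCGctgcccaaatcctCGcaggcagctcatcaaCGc
FCGRT: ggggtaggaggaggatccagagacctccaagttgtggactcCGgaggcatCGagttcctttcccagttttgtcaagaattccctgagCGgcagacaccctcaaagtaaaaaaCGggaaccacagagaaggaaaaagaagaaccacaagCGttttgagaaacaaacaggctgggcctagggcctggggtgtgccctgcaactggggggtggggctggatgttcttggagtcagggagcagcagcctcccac
ITGBL1 has 6 CG dinucleotides in this window and FCGRT 5. The number varied widely within both groups of genes. Among genes that narrowed or turned, HTRA1 had 39, CEP19 and C16orf74 36 and ZFTA 26, but CLDN4 4 and FHL1 1. Among those silent in resistant decitabine tumours TENM1 had 8, ZNF439 10, GABRE 31 and ID4 34. Over the sets, the median was 21.5 for 708 of 876 persistent lower genes with a RefSeq promoter and 14.5 for 8 of the 9 narrowed genes. In these sets 87.7% and 50% held 10 or more. For 444 of 634 persistent higher genes the median was 17, and 69.4% held 10 or more. Differences between the sets were not tested. Only 74.2% of all genes tested had an entry, so a comparison of sets with all genes is void.

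ITGBL1 encodes a secreted integrin beta-like protein. It was at 5.1, 0.869, 1.8 and 1.6 CPM in parental and at 0, 0, 0 and 0.226 CPM in resistant vehicle tumours. Under decitabine it was at 2.47, 3.26, 4.68 and 2.55 CPM in parental and at 6.17, 6.5 and 4.68 CPM in resistant tumours, where the groups met at 4.68 CPM. Resistant tumours had 1 count with vehicle and 75 with decitabine, a ratio of 96.8 (16.9 to 3870). The line difference under decitabine was 0.82 (log2, SE 0.38, adjusted p = 0.112), and its change against vehicle was called (adjusted p = 0.00358, edgeR).

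FCGRT, the neonatal Fc receptor that recycles IgG and albumin, changed in both lines. Parental tumours had 22, 31.5, 34 and 42.4 CPM with vehicle and 15, 17.8, 11.1 and 18.3 CPM with decitabine, a fall by 1.06 (log2, adjusted p = 0.0182). Resistant tumours had 8.01, 5.32, 8.82 and 6.78 CPM with vehicle and 16.2, 32.2 and 17 CPM with decitabine, a rise of 1.57 (adjusted p = 0.000711). The line difference went from -2.16 to 0.47, a change of 2.63 (SE 0.35, adjusted p = 0.000333, edgeR), and of 2.26 without resistant decitabine 2. Of the 16 genes, FCGRT alone was still called in the fit of 15 libraries (adjusted p = 0.0243; at most 0.00221 in the leave-one-out fits).

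For FHL1, a LIM-domain protein of muscle and cytoskeleton, the lines overlapped under decitabine. Resistant vehicle tumours were at 2.91, 5.32, 7.01 and 4.52 CPM, and the 4 parental vehicle tumours between 17.4 and 26.3 CPM. Under decitabine, resistant tumours were at 21.8, 10.7 and 17.9 CPM and the parental ones at 24.3, 16.7, 15 and 15.8 CPM. The groups overlapped, with the resistant tumour at 10.7 CPM below all parental ones. The line difference of -2.08 under vehicle was -0.08 (SE 0.25) under decitabine, a change of 1.99 (SE 0.37, adjusted p = 0.013, edgeR).

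CLDN4, the tight junction protein claudin 4, was at 13.1, 17.7, 24.6 and 14.2 CPM in resistant vehicle tumours and at 45, 49.7 and 44.5 CPM in resistant decitabine tumours, all above the 4 parental decitabine tumours (41, 38.4, 36.5 and 43.6 CPM). The line difference was -1.21 under vehicle and 0.22 (SE 0.17, adjusted p = 0.347) under decitabine, a change of 1.43 (SE 0.24, adjusted p = 0.00444, edgeR). Parental CLDN4 did not move detectably with decitabine (-0.02, adjusted p = 0.95).

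For HTRA1, a secreted serine protease, the lines came level under decitabine, and only the parental change with the drug was called. Parental tumours fell by 1.03 (log2, adjusted p = 0.0182), from 121 to 242 CPM with vehicle down to 75.7 to 131 CPM with decitabine. Resistant tumours, at 51.4 to 80 CPM with vehicle, were at 77.3, 118 and 96.2 CPM with decitabine (0.62, adjusted p = 0.122). The change of the line difference was 1.65 (adjusted p = 0.0134), and it was no longer called without resistant decitabine 2 (1.49, adjusted p = 0.0815, edgeR) or without parental vehicle 4 (adjusted p = 0.0519).

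ZNF512B, a zinc finger protein, was the persistent gene with a called change: its deficit shrank from -2.88 to -0.99 (change 1.89, adjusted p = 0.0324) and was still called under decitabine (adjusted p = 0.00491). The call of its change held in 6 of 15 leave-one-out fits. Both FHL1 and HTRA1 stopped short of a turn. NFATC4 (a calcineurin-regulated transcription factor), CEP19 (a centriole protein) and ZFTA (a zinc finger protein) were lower in resistant tumours under vehicle and higher under decitabine, with decitabine differences of 0.95, 0.86 and 0.57 (log2). Their changes were called in 14, 7 and 6 of the 15 leave-one-out fits. The NFATC4 and ZFTA changes had an adjusted p of 0.069 and 0.161 (edgeR) without resistant decitabine 2, and the CEP19 change 0.115 without resistant vehicle 4.

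C16orf74 and NUP93, a subunit of the nuclear pore, turned the other way. C16orf74 was at 12.3, 7.67, 9.75 and 11.4 CPM in parental and at 5.96, 4.24 and 4.9 CPM in resistant decitabine tumours, with no overlap, a difference of -1.01 (SE 0.25). Under vehicle it was 0.86 higher in resistant tumours, and the change was -1.87 (adjusted p = 0.0113, edgeR). The NUP93 difference went from 0.27 to -0.46 (change -0.73, adjusted p = 0.0172). Without resistant decitabine 2 both changes lost the call (adjusted p = 0.0562 for C16orf74 and 0.0815 for NUP93).

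The 5 differences that appeared were all higher in resistant tumours. FILIP1, a filamin-interacting protein, was at 0.19, 0.575, 0.585 and 0.696 CPM in parental and at 5.75, 4.52 and 6.6 CPM in resistant decitabine tumours. Its line difference was 3.42 (log2, SE 0.43), and the change 4.59 (adjusted p = 0.0095, edgeR; 0.0962 without parental vehicle 4). PLTP, the phospholipid transfer protein of lipoproteins, was at 4.56, 5.75, 5.85 and 4.41 CPM in parental and at 15, 17.2 and 14.1 CPM in resistant decitabine tumours. The PLTP difference was 1.57 (SE 0.19), against -0.14 under vehicle, a change of 1.71 (adjusted p = 0.00358). For both genes the decitabine groups lay far apart and the vehicle groups overlapped.

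CD96, a receptor best known from T and NK cells, was at 27.7, 27.8, 19.1 and 17.9 CPM in parental and at 47.9, 49.4 and 50.2 CPM in resistant decitabine tumours. Its change was 1.55 (adjusted p = 0.0343, edgeR; up to 0.126, without parental decitabine 3), called in 8 of 15 leave-one-out fits. POLM, a DNA polymerase of end joining, was at 15, 14.2, 16.4 and 11.4 CPM in parental and at 25.3, 27.4 and 24.5 CPM in resistant decitabine tumours, with no overlap, a difference of 0.85 (log2, SE 0.15). Under vehicle POLM was lower in every resistant tumour than in any parental one, a difference of -0.22 that was not called (adjusted p = 0.291, edgeR). Its change was 1.07 (adjusted p = 0.024, edgeR; up to 0.0911, without resistant vehicle 4), called in 10 of 15 leave-one-out fits. Parental POLM fell by 0.69 with decitabine (adjusted p = 0.0182), and resistant POLM did not change detectably (0.38, adjusted p = 0.164). In these contrasts within a line, decitabine against vehicle, 225 genes (1.67%) were called in parental and 450 (3.33%) in resistant tumours. Both share libraries with the line comparisons.

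**Figure D3:**
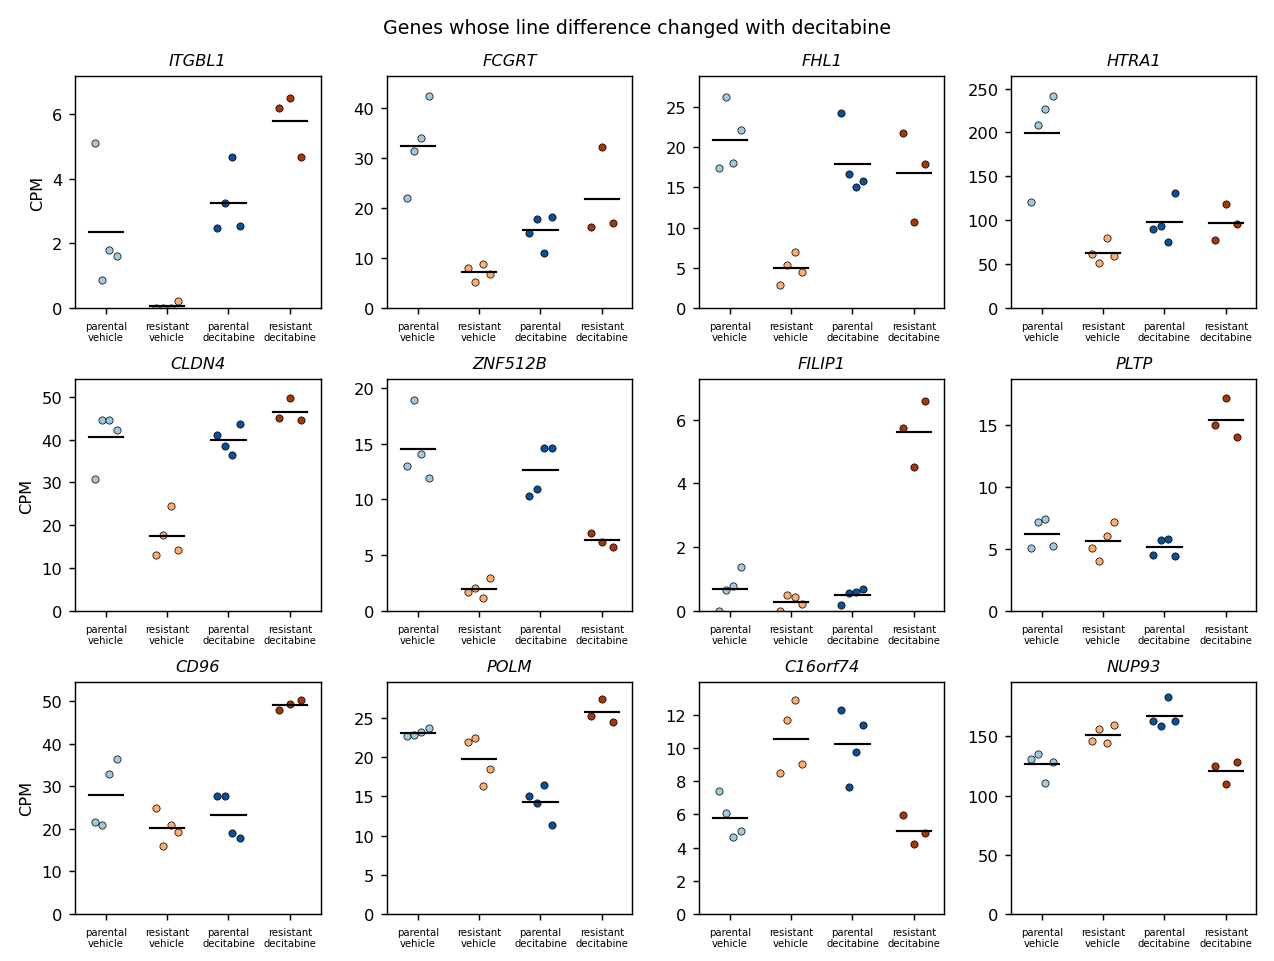
Level (CPM, linear axes from 0) in each library of 12 of the 16 genes whose line difference changed with decitabine, with bars at the group means. In ITGBL1, FCGRT, FHL1, HTRA1 and CLDN4 the resistant tumours were lower under vehicle and overlapped the parental ones or lay above them under decitabine. FILIP1, PLTP, CD96 and POLM were high in the 3 resistant decitabine libraries.

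Silent genes were counted by a rule chosen after the data were seen. Of the 1550 genes called lower in resistant tumours under vehicle, 16 had no count in the 4 resistant vehicle libraries. Under decitabine 9 of them again had none, 3 had 1 to 3 counts and 4 had more: CTAG2 (41 counts), KRBOX1 (16), GPR158 (8) and LINC00665 (4). A mean of 1 CPM was reached by 2 of the 16, and 14 were still called lower under decitabine. In the opposite direction, 16 genes called higher had no count in parental vehicle tumours, and 8 of these had more than 3 counts with decitabine, among them PNMA5 (34), SLC7A7 (26) and UCA1 (11). Here too 14 were still called.

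CTAG2, the cancer-testis antigen also known as LAGE-1, was absent from the resistant vehicle tumours and at 2.06, 2.83 and 4.47 CPM in the 3 resistant decitabine tumours. Parental decitabine tumours had 3.04, 5.75, 10.7 and 6.27 CPM, which overlapped. The line difference was -1.04 (log2, SE 0.6, adjusted p = 0.21, edgeR), against at least 15.7-fold lower under vehicle, and the change was not called (adjusted p = 0.127). KRBOX1 remained lower (-2.34, adjusted p = 0.000693).

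Cancer-testis antigens were counted as a list. In it and the lists below, counts are to be read against the 13.7% of all genes tested that were higher and the 13.1% that were lower under decitabine. Counts without resistant decitabine 2 are to be read against 1174 higher and 1146 lower of the 13741 genes then tested. For vehicle counts the numbers over all genes were 1168 higher and 1550 lower of 13495. Of 59 members with an entry in the counts, 12 passed the filter on low counts, which a gene can pass through the group where it is high. The shares below cover tested members only, which limits a comparison with all genes. Of the 12, 8 were higher (66.7%) and 1 lower in resistant decitabine tumours (7 and 0 without resistant decitabine 2), against 6 and 3 under vehicle. The median difference was 2.39 (log2) under decitabine and 1.67 under vehicle, where all genes had medians of -0.02 and 0.02. CSAG1 was at 1.14, 0.767, 2.93 and 1.16 CPM in parental and at 20.3, 29.7 and 33.2 CPM in resistant decitabine tumours, a difference of 4.18 (SE 0.32, adjusted p = 9.41e-10). SSX1, which shares sequence with other SSX genes, was at 0.38, 2.3, 2.93 and 1.39 CPM against 26.7, 26.6 and 26.6 CPM, a difference of 3.90 (adjusted p = 6.64e-06, edgeR). MAGEC1, with 5 and 49 counts, was 3.73 higher under decitabine, and the change of its line difference was not called (adjusted p = 0.443). Of 34 germ cell and meiosis genes, 4 passed the filter. Of these, 3 were higher and none lower, among them MEI1 (2.33) and PRDM9 (1.62), a histone methyltransferase that places meiotic crossovers.

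Of 15 genes of HLA class II presentation, 9 passed the filter. All 9 were higher in resistant decitabine tumours (8 of 9 without resistant decitabine 2), against 6 under vehicle, with medians of 3.29 and 1.64 (log2). HLA-DRA, the alpha chain of the HLA-DR dimer, was at 0.949, 1.15, 1.17 and 1.39 CPM in parental and at 9.66, 23.7 and 14.9 CPM in resistant tumours. Its difference was 3.75 (SE 0.53, adjusted p = 1.1e-05, edgeR) under decitabine and 3.23 under vehicle. HLA-DRB1, whose reads are shared with other DRB genes, was 4.67 higher (3.93 without resistant decitabine 2), and HLA-DPA1 3.82 higher. No change of the line difference was called in the list.

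Class II genes are also expressed by immune cells, and markers of these moved in part. Of the lymphoid list, CD3E, CD3G, CD8B, CD2, MS4A1, NKG7 and GNLY were at 0 in both decitabine groups. The summed level of its 13 markers was 3.25 to 8.25 CPM in parental and 29.4 to 42.3 CPM in resistant decitabine tumours, and IL7R (2.42 higher, adjusted p = 3.47e-07) and CD8A (2.27, adjusted p = 6.04e-05, edgeR) made up most of it. Of 14 myeloid markers, with a sum of 97.6 to 168 against 156 to 215 CPM, S100A8 and S100A9 were at 0, and LAPTM5 and CD68 carried most of the sum. Of the 6 tested, FCER1G (12 and 57 counts, 2.75 higher) and LAPTM5 (0.52 higher, adjusted p = 0.0498, a call lost when single libraries were left out) were called, and PTPRC, CSF1R and AIF1 had differences of -0.77, -1.09 and -0.73 (adjusted p = 0.229, 0.163 and 0.461, edgeR). The median of the tested myeloid markers was -0.25, and 0.43 without parental decitabine 4. CD96, described above, is another gene of lymphoid cells. Summed endothelial markers (142 to 184 CPM in resistant and 157 to 177 CPM in parental decitabine tumours, 14 markers, PLVAP at 0) and fibroblast markers (840 to 1580 and 758 to 2070 CPM, 10 markers) overlapped between the lines, with ESAM and COL1A1 as the most abundant genes. Of 9 endothelial markers tested, TMEM204 (9 and 101 counts, 4.00 higher, adjusted p = 4.12e-06) and CDH5 (1.77, adjusted p = 0.0318) were called higher, and of 8 fibroblast markers FAP (1.11, adjusted p = 0.029) and ACTA2 (0.89, adjusted p = 0.0141, edgeR), with none called lower. In each list 1 of these calls was lost when single libraries were left out. The part of any of these cells in the class II difference was not tested.

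Genes of class I peptide loading were called in both directions. Of 16 members tested, 7 were higher (43.8%) and 2 lower (12.5%), and the 7 became 3 without resistant decitabine 1 or 2 and 4 without parental decitabine 3 or 4. The lower members were PDIA3 and CALR, chaperones of the loading complex in the endoplasmic reticulum. CALR was at 518, 515, 595 and 576 CPM in parental and at 310, 228 and 313 CPM in resistant decitabine tumours (-0.96, SE 0.14, adjusted p = 7.29e-06, edgeR), and PDIA3 was lower as well (-1.11). TAPBPL, an editor of loaded peptides, was 1.22 higher.

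Interferon-stimulated genes detect and restrict viruses. Of 61 tested, 15 were higher (24.6%, against 13.7% of all genes) and 8 lower (13.1%, the same as over all genes) in resistant decitabine tumours (9 and 4 without resistant decitabine 2, 19 and 5 without parental decitabine 2), against 6 and 13 under vehicle. The median line difference was 0.19 under decitabine and -0.15 under vehicle (log2), and 46 of the 61 had a larger difference under decitabine. Over all genes, the median change of the line difference was 0. No member had a called change, and a change of the list was not tested. Within resistant tumours 15 of the 61 rose with decitabine and none fell, and within parental tumours 6 rose and 1 fell. Of all 13495 genes, 274 rose and 176 fell in resistant tumours, and 107 rose and 118 fell in parental tumours.

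MX1, an antiviral GTPase, was at 4.75, 21.1, 6.44 and 6.5 CPM in parental and at 52.2, 58.2 and 45.6 CPM in resistant decitabine tumours. The difference was 2.41 (log2, SE 0.51, adjusted p = 0.0011), and 3.13 without parental decitabine 2, the highest parental library. Under vehicle it was 0.41 (adjusted p = 0.619), and the change was not called (adjusted p = 0.157, edgeR). RSAD2 (viperin) had 0 counts in parental and 45 in resistant decitabine tumours, at least 22.8-fold higher, and MX2 was 3.37 higher.

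Of 27 inflammatory NF-kB targets, 15 were higher (55.6%) and 2 lower (7.41%) under decitabine (12 and 0 without resistant decitabine 2, 9 and 2 without resistant decitabine 1), against 9 and 1 under vehicle, with medians of 0.76 and 0.53. LTB, a lymphotoxin that signals to stroma, was at 4.37, 2.49, 3.71 and 2.32 CPM in parental and at 33.5, 15.8 and 20 CPM in resistant decitabine tumours (2.83, SE 0.51, adjusted p = 0.000193, edgeR). CCL5, a chemokine for T cells and monocytes, had 6 and 50 counts. CSF3, the granulocyte colony-stimulating factor, was 2.18 higher in resistant tumours with decitabine and 2.05 with vehicle, although its level rose in both lines with the drug (2.79 in parental, adjusted p = 0.0355; 2.92 in resistant, adjusted p = 0.000511).

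Paclitaxel acts on microtubules. Of 40 tubulins and microtubule-binding proteins, 5 were higher (12.5%) and 13 lower (32.5%; 4 and 5 without resistant decitabine 2, 6 and 7 without resistant decitabine 1), against 3 and 7 under vehicle. MAPT, the microtubule-stabilising protein tau, was at 10.3, 11.3, 7.02 and 11.1 CPM in parental and at 67.2, 71.8 and 45.4 CPM in resistant tumours. This was a difference of 2.63 (log2, SE 0.21, adjusted p = 9.41e-10), beside 2.07 under vehicle, and the change was not called (adjusted p = 0.273, edgeR). MAP1A, another microtubule-associated protein, was 2.23 higher. TUBB3, the neuronal beta-tubulin often named in taxane resistance, had 2 and 1 counts and was not tested.

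The efflux pumps were counted as another list. The multidrug transporter gene ABCB1 had 4 counts in parental and 5 in resistant decitabine tumours, and ABCB4 had 4 and 2, too few for a test. Of 21 ABC transporters tested, 5 were higher and 5 lower (23.8% each; 4 and 2 without resistant decitabine 2, 5 and 3 without parental decitabine 3), against 2 and 1 under vehicle. ABCC3, an exporter of conjugated organic anions, was at 2.85, 3.84, 2.93 and 2.79 CPM in parental and at 11.1, 13.6 and 11.5 CPM in resistant decitabine tumours (1.94, SE 0.31, adjusted p = 3.69e-05, edgeR). ABCA3, a lipid transporter, was 1.68 higher.

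The enzymes that decitabine acts on, or that act on it, were compared next. Of 26 genes of the DNA methylation machinery, 2 were higher (7.69%) and 7 lower (26.9%) in resistant decitabine tumours (1 and 6 without resistant decitabine 2, 4 and 7 under upper-quartile scaling), against 2 and 5 under vehicle. DNMT1, the maintenance methyltransferase, was at 333, 317, 374 and 306 CPM in parental and at 120, 136 and 152 CPM in resistant tumours, with no overlap. The difference was -1.29 (log2, SE 0.16, adjusted p = 1.48e-06) under decitabine and -0.53 (adjusted p = 0.0101) under vehicle, and the change, -0.76, was not called (adjusted p = 0.0929, edgeR). MBD2, a reader of methylated CG, and TET2, which oxidises methylcytosine, were also lower (-0.94 and -0.76). The de novo enzymes did not differ detectably (DNMT3A -0.04, adjusted p = 0.895; DNMT3B -0.60, adjusted p = 0.246).

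CDA, the cytidine deaminase that inactivates decitabine, was at 30.8, 32.6, 32.8 and 36.9 CPM in parental and at 3.9, 7.06 and 4.9 CPM in resistant decitabine tumours. The difference was -2.67 (log2, SE 0.31, adjusted p = 5.8e-07) under decitabine and -2.38 under vehicle. DCK, the kinase that activates the drug, had overlapping groups (15.8, 9.78, 15.6 and 8.59 against 10.7, 3.96 and 9.16 CPM) and a difference of -0.62 (adjusted p = 0.142, edgeR). RRM1, the large subunit of ribonucleotide reductase, was lower (-1.14, and -0.80 without resistant decitabine 2). Of 23 genes of decitabine uptake, activation and breakdown, 2 were higher (8.7%) and 6 lower (26.1%), and 0 and 4 without resistant decitabine 2.

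Epithelial and mesenchymal genes were called in both directions. Of 21 epithelial genes, 5 were higher (23.8%) and 6 lower (28.6%; 3 and 6 without resistant decitabine 2), and of 33 mesenchymal genes 6 were higher (18.2%) and 5 lower (15.2%; 4 and 3 without resistant decitabine 2, 5 and 9 without resistant decitabine 1). KRT81, a hair keratin expressed in some breast cancers, was at 13.3, 16.9, 30.6 and 17.4 CPM in parental and at 0.822, 1.7 and 0.213 CPM in resistant decitabine tumours (-4.48, SE 0.52; -5.16 without resistant decitabine 2). MUC1, a surface mucin, was 3.10 higher and CLDN1 1.75 higher. CDH11, a mesenchymal cadherin, was at 18.2, 19, 27.5 and 18.1 against 2.88, 1.7 and 4.05 CPM (-2.80, SE 0.36, adjusted p = 1.57e-06, edgeR), and the gelatinase MMP2 was lower too (-2.94; -3.67 without resistant decitabine 3).

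E-cadherin itself spread widely. CDH1 was at 47.8, 53.1, 3.71 and 99.3 CPM in parental and at 103, 179 and 114 CPM in resistant decitabine tumours, so the groups did not overlap. Its difference of 1.37 (SE 0.51) passed at an adjusted p of 0.0478, and was 1.09 with an adjusted p of 0.208 without resistant decitabine 2 (edgeR). Under vehicle it was -0.08 (adjusted p = 0.932).

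In the matrix, 6 of 33 collagen genes were higher (18.2%) and 7 lower (21.2%; 3 and 3 without resistant decitabine 2, 3 and 8 without resistant decitabine 1, 2 and 6 without parental decitabine 3). COL6A2, a chain of collagen VI, was at 21.3, 13.6, 14.8 and 15.8 CPM in parental and at 1.03, 1.41 and 0.639 CPM in resistant decitabine tumours (-4.0, SE 0.70, adjusted p = 0.000137, edgeR). FKBP10, a chaperone of collagen, was 1.92 higher in resistant tumours under decitabine and 2.10 under vehicle, while its level rose with the drug in both lines (3.46 in parental, adjusted p = 0.00336; 3.29 in resistant, adjusted p = 2.28e-05).

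Of 25 integrin and laminin subunits, 5 were higher (20%) and 3 lower (12%), near the 13.7% and 13.1% of all genes (3 and 2 without resistant decitabine 2 or parental decitabine 3). ITGB2, the leukocyte integrin subunit, was 2.11 higher. Of 32 metalloproteases and inhibitors, 4 were higher (12.5%) and 6 lower (18.8%; 4 and 1 without resistant decitabine 2). MMP9 had 5 and 79 counts in parental and resistant decitabine tumours, 4.42 higher (SE 0.61, adjusted p = 5.79e-06), against 0.95 under vehicle, and the change was not called (adjusted p = 0.152, edgeR). Among 26 EGFR ligands and receptor kinases, 5 were higher (19.2%) and 8 lower (30.8%; 3 and 8 without resistant decitabine 2). NRG1, a ligand of HER3, was at 77.1, 92.6, 86.6 and 91.2 CPM in parental and at 31.4, 35.9 and 33.4 CPM in resistant decitabine tumours (-1.37, SE 0.17), and EREG was lower as well (-1.19), whereas NRG2 was 1.49 higher.

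Among genes of cell division, all calls under decitabine were lower in resistant tumours, and their number depended on single libraries. Of 46 mitosis genes, none was higher, 12 were lower (26.1%, against 13.1% of all genes) and 34 were not called. Without resistant decitabine 2, 4 were lower, where calls over all genes also fell (1146 lower of 13741). The number was 6 without resistant decitabine 1 and 7 without parental decitabine 3. Under vehicle 4 were higher and 1 lower. The median line difference was -0.35 under decitabine, -0.35 also without resistant decitabine 2, and 0.08 under vehicle (log2). Against vehicle, the list's median change with decitabine was 0.61 in parental tumours, where 5 members rose (107 of 13495 over all genes). It was 0.09 in resistant tumours, where none was called, and the difference between these medians was not tested. NUF2, a kinetochore subunit, was at 63.6, 73.1, 92.2 and 69.6 CPM in parental and at 39.3, 32.8 and 49.2 CPM in resistant decitabine tumours (-0.88, SE 0.23, adjusted p = 0.0048), and the change of the line difference, -1.29, was not called (adjusted p = 0.0718, edgeR). KIF18A, a kinesin that shortens spindle microtubules, was lower (-1.20), and BUB1, a spindle checkpoint kinase (-0.96), lost its call without resistant decitabine 2 (-0.90).

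Of 42 DNA replication genes, none was higher and 11 were lower (26.2%; 8 without resistant decitabine 2, 5 without resistant decitabine 1, 6 without parental decitabine 3), against 3 and 3 under vehicle. RPA2, a subunit of the single-strand binding complex, was at 60.4, 59.3, 55.6 and 47.1 CPM in parental and at 17.9, 10.7 and 26.2 CPM in resistant decitabine tumours (-1.59, SE 0.21, adjusted p = 3.01e-06, edgeR). CLSPN, an adaptor of the replication checkpoint, and PRIM1, the catalytic primase, were lower by log2 differences of -1.21 and -1.86. No change of the line difference was called in either list with all libraries. Without parental vehicle 1, 7 changes were called in the mitosis list, where 8 members were then higher under vehicle, and without parental decitabine 4 there was 1.

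Of 33 genes of cholesterol and fatty acid synthesis, none was higher, 10 were lower (30.3%, against 13.1% of all genes) and 23 were not called. The 10 became 8 without resistant decitabine 2 and 7 without parental decitabine 1 or 2, against 2 lower under vehicle. SQLE, squalene epoxidase, was at 70.4, 66.7, 68.8 and 71 CPM in parental and at 29.8, 41.2 and 34.9 CPM in resistant decitabine tumours, with no overlap. Its difference was -0.98 (log2, SE 0.17, adjusted p = 0.000123, edgeR) under decitabine and -1.09 under vehicle.

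Of 37 hypoxia and glycolysis genes, 1 was higher (2.7%) and 4 lower (10.8%), both below the 13.7% and 13.1% of all genes (0 and 2 without resistant decitabine 2, 0 and 8 without resistant decitabine 1). ANGPTL4, a lipase inhibitor, was at 537, 567, 347 and 516 CPM in parental and at 245, 98.6 and 140 CPM in resistant decitabine tumours (-1.61). Among 74 cytosolic ribosomal proteins, 1 was higher (1.35%) and 12 lower (16.2%, near the 13.1% of all genes; 0 and 4 without resistant decitabine 2, 1 and 6 without parental decitabine 1), and RPS28 had the difference of -1.43 under decitabine and -1.66 under vehicle. Of 13 mitochondrially encoded genes, 4 were higher (30.8%) and none lower (2 without parental decitabine 1 or 2). Of 14 BCL2 family genes, 2 were higher (14.3%) and 1 lower (7.14%): BCL2, which blocks apoptosis, was lower (-1.41), and BIK, which promotes it, 1.97 higher. BCL2L1 (BCL-XL) was 0.91 higher, but 0.40 with an adjusted p of 0.249 (edgeR) without resistant decitabine 2, whose level of 1230 CPM stood beside 497 and 591 CPM in the other resistant decitabine tumours.

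Of 28 p53 targets, 6 were higher (21.4%) and 3 lower (10.7%), and 1 and 2 without resistant decitabine 2. Of 30 NRF2 targets and glutathione genes, 3 were higher (10%) and 8 lower (26.7%), 1 and 7 without parental decitabine 1 or resistant decitabine 1, and 1 and 6 without parental decitabine 3. Of 27 immediate-early genes, 3 were higher (11.1%) and none lower, and 1 was higher without parental decitabine 2, resistant decitabine 1 or resistant decitabine 2. Of 18 imprinted genes, 3 were lower (16.7%) and none higher, and 1 was lower without resistant decitabine 2.

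**Figure D4:**
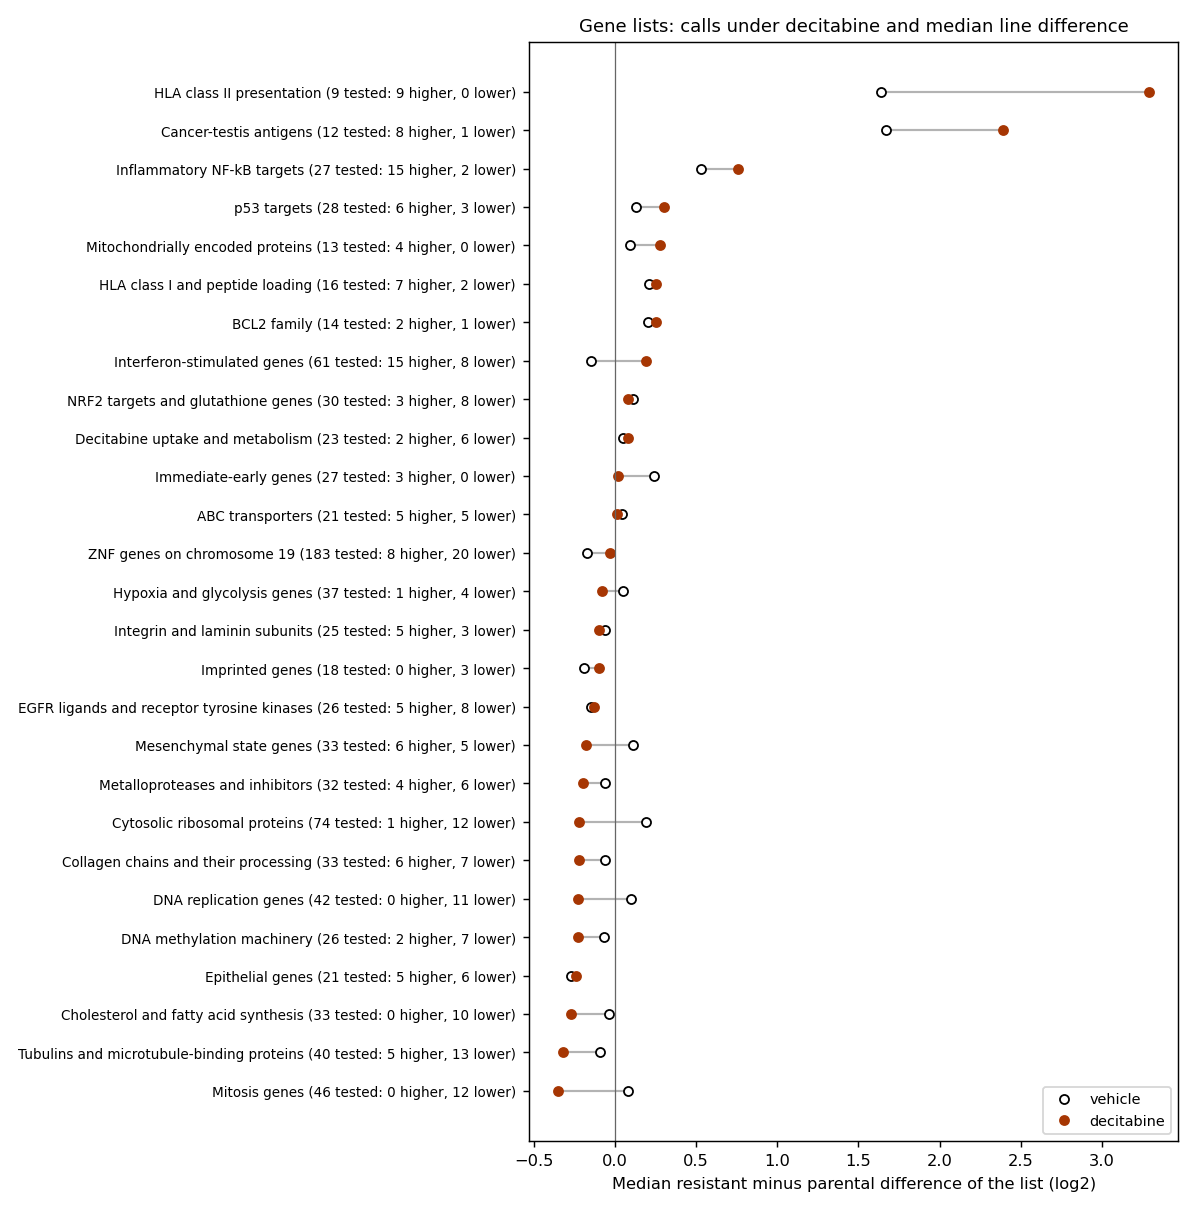
Median line difference (log2, resistant minus parental) of 27 gene lists with at least 9 genes tested, under vehicle (open circles) and decitabine (filled circles), with the number of genes called under decitabine. HLA class II (3.29), cancer-testis (2.39) and NF-kB genes (0.76) had the highest and mitosis genes (-0.35) the lowest medians under decitabine.

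The zinc finger (ZNF) genes of chromosome 19, mostly encode repressors with a KRAB domain. Of 183 tested, 8 were higher (4.37%) and 20 lower (10.9%, below the 13.1% of all genes) under decitabine and 4 were higher and 41 lower under vehicle. Without resistant decitabine 2 the decitabine counts were 5 and 16, and under upper-quartile scaling 16 and 18. The median was -0.03 under decitabine, with the other sign under upper-quartile scaling (0.03) and without resistant decitabine 2 (0.02) or 3 (0.01), and -0.17 under vehicle. The difference was larger under decitabine than under vehicle in 127 of the 183, and over all genes the median change was 0. None of the list's changes was called, and a change of the list was not tested. ZNF439 (72 and 0 counts, at least 15.8-fold lower), ZNF585B (61 and 0, at least 13.4-fold lower) and ZNF829 (80 and 1, ratio 52.6, interval 9.18 to 2100) were nearly silent in resistant tumours under decitabine as under vehicle.

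The called genes were spread unevenly over the chromosomes, and chromosomes 18, 1 and 6 had the highest shares of lower genes under both treatments. Shares of higher genes differed more between the treatments. Of 28 genes tested on the mitochondrial genome, 28.6% were higher under decitabine (25% without resistant decitabine 2) and 3.57% under vehicle. On chromosome 18, 36.2% of 210 genes tested were lower and 6.67% higher in resistant decitabine tumours, with 36.7% lower under vehicle (24.1% lower under decitabine without resistant decitabine 2). Chromosomes 1 (27.4% lower) and 6 (26.6%) followed, with 21% and 25.6% under vehicle (19.8% and 19.7% under decitabine without resistant decitabine 2). On chromosome 9, 23.5% of 520 genes were higher and 3.27% lower, with 21.5% higher under vehicle (15.8% under decitabine without resistant decitabine 2), and on chromosome 22 the shares were 22.3% and 2.41% (12.2% and 1.35% without that library). Chromosomes 17 and 14 had 20.8% and 20.3% of their genes higher under decitabine and 10.2% and 8.26% under vehicle, and without resistant decitabine 2 the decitabine shares were 11.6% and 12.7%. Over all genes, 13.7% were higher and 13.1% lower under decitabine, and without resistant decitabine 2 the numbers were 1174 and 1146 of 13741 genes.

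In 249 windows of 10000000 bases with at least 20 genes tested (GENCODE 29, GRCh38), the median differences under both treatments had a Spearman rho of 0.68 over windows, and 163 had the same sign. In the window at 80000001 to 90000000 on chromosome 1, 26 of 42 genes were lower (median -0.78; -0.57 under vehicle), and at 50000001 to 60000000 on chromosome 18, 18 of 27 (median -0.63; -0.68 under vehicle). Without resistant decitabine 2, 17 of 42 and 14 of 28 were lower. The adjoining windows at 120000001 and 130000001 on chromosome 9 had 42 of 112 and 41 of 94 genes higher and none lower, each with a median of 0.46, and without that library 25 of 112 (1 lower) and 29 of 98 were higher. At the start of chromosome 7, 28 of 64 genes were higher under decitabine and 8 under vehicle (medians 0.49 and 0.15), and 19 of 66 were higher without resistant decitabine 2. Copy number was not measured.

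**Figure D5:**
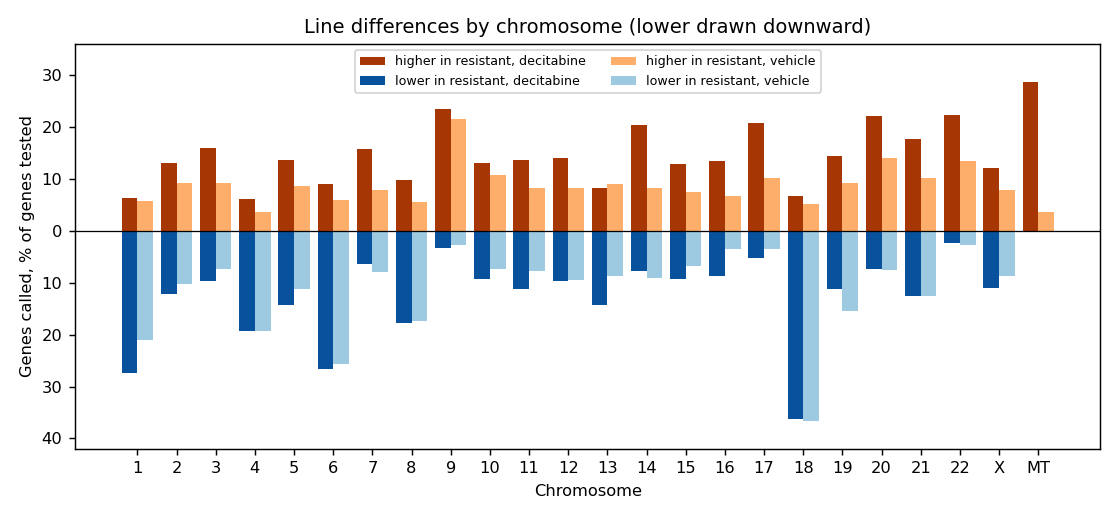
Share of the genes tested on each chromosome (%, MT is the mitochondrial genome) that were called higher (upward) or lower (drawn downward) in resistant tumours, under decitabine (dark) and vehicle (light). Chromosomes 18, 1 and 6 had the highest shares of lower genes (36.2%, 27.4% and 26.6% under decitabine).

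The doxorubicin-treated tumours, at 1 mg/kg, gave a further view in separate libraries. With both drugs the lines differed in 2960 genes (21.9%), and with doxorubicin alone in 1879 (13.9%). Of the 1510 persistent genes, 1028 were called in the same direction with both drugs and 923 with doxorubicin alone, and 780 in all 4 treatments (330 higher, 450 lower). CLEC11A was 5.02 (log2) higher with both drugs and 4.44 with doxorubicin, CSAG1 4.25 and 4.01, and MAPT 1.58 and 1.89. CDA was lower in each, with differences of -1.84 and -2.80. Of the 2097 genes called under decitabine but not under vehicle, 865 were called in the same direction with both drugs and 273 with doxorubicin alone. Of the 1199 called under vehicle only, the numbers were 188 and 308.

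The change with decitabine was also computed among tumours on doxorubicin, as the line difference with both drugs minus that with doxorubicin alone. For 15 of the 16 genes it had the same sign as without doxorubicin, C16orf74 being the exception. The share of same signs over all genes is not given here, so this count is a description only. The values were 1.63 for FHL1, 1.08 for CLDN4, 0.85 for PLTP, 2.05 for FILIP1, 1.51 for ITGBL1 and 0.42 for FCGRT (log2). In edgeR none was called, there or over all genes (0 of 13495; 1959, or 14.5%, at an unadjusted p under 0.05, and 18 in DESeq2).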

How the data were processed

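RNA of 29 tumours was sequenced from the 3′ end, so that tag counts do not scale with gene length. The deposited values are whole read counts per gene, which the authors obtained with cutadapt, STAR 2.7.3a and featureCounts on GRCh38.p10, per the submitters' processing notes. The strand setting, the annotation release and the handling of mouse reads are not given in the sources used here. The comparison, the gene lists and the named genes were chosen with earlier results of these data known.

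The counts were fitted with edgeR 4.0.16 (R 4.3.3, limma 3.58.1): TMM scaling, a filter at 10 counts (15 in all), 8 group means over 29 libraries, robust quasi-likelihood tests and Benjamini-Hochberg adjustment over 13495 genes at 0.05. Contrasts were the line difference under decitabine, under vehicle, and the decitabine difference minus the vehicle difference. A log2 difference is resistant minus parental unless stated otherwise. The libraries' median total was 4600007 counts. In simulated counts, 100 genes were changed 2-fold and 100 4-fold, all at 5 CPM or more and in resistant decitabine tumours only. All groups otherwise had the same level and no library stood apart, so the rates need not hold for these data. The tests returned 81% of 2-fold and 97% of 4-fold line differences under decitabine, and 55% and 95% of such changes of the line difference (13189 genes). They also called 11 and 6 unchanged genes.

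Genes were named by rule. At 5 CPM or more, these were the 6 largest persistent differences each way with groups apart under both treatments, and the narrowed and emerged genes (5 each way by size of the change). Up to 3 called members of each list were added without a limit on CPM, with fixed genes of taxane and decitabine handling. RSAD2, MX2, MAGEC1 and CCL5 are among the list members below 5 CPM. The other genes with a called change, the genes named for silence, and the marker genes were chosen after their values were seen. Genes with 0 counts in a group are given by a bound from 3 counts. It leaves out counting error in the other group, so exact 95% lower limits are smaller. Genes with 1 to 3 counts are given by a ratio with an exact 95% interval, which covers counting error only. Alternatives were DESeq2 1.42.0, other scalings, filters and sample sets, a replicate block and leaving out each library. Promoter sequences are from RefSeq. Gene positions are from GENCODE 29. Results of some genes that met the rule are not reported here.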

Additional observations from a re-analysis of the deposited data

Results flagged for a closer look

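Single libraries stood apart from the rest of their group in 13 of 122 groups of values examined (10.7%). Chance alone marks about 1 in 20 groups of normally distributed values, which CPM of low counts are not. A group with counts in 1 library only is always marked, so an excess over chance cannot be read from this share. Under decitabine in the parental line, MX1 was at 21.1 CPM in library 2 (the others 4.75 to 6.5), and the same library was high for ABCC3 (3.84, others 2.79 to 2.93) and TENM1 (5.75, others 2.73 to 3.23) and low for MAP1A (0.959, others 2.09 to 2.15). Library 3 was high for NUP93 (183.0, others 159 to 163) and CDH11 (27.5, others 18.1 to 19). Library 4 was high for ZFTA (52.7, others 42.1 to 43) and MUC1 (2.32, others 0.949 to 0.975). Library 1 was high for TET2 (22.8, others 17.3 to 17.9) and had the 0.38 CPM of PTPRN2, where the others had 0. Among vehicle tumours, CLDN4 was low in parental library 1 (30.8, others 42.2 to 44.5), NFATC4 low in resistant library 2 (7.85, others 12.9 to 13.8), and ITGBL1 at 0.226 in resistant library 4 (others 0).

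The line difference differed between decitabine and vehicle, by a test of that change, in 16 genes. On the log2 scale, 15 of the changes were 5.6 for ITGBL1 (a fitted value that depends on the prior count), 4.59 for FILIP1, 2.63 for FCGRT, 1.99 for FHL1, 1.89 for ZNF512B, 1.77 for NFATC4, 1.71 for PLTP, 1.69 for CEP19, 1.65 for HTRA1, 1.55 for CD96, 1.43 for CLDN4, 1.29 for ZFTA, 1.07 for POLM, -0.73 for NUP93 and -1.87 for C16orf74.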

How the results depend on the processing

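Leaving out 1 library at a time gave 2320 to 3810 line differences under decitabine (3616 with all), 2037 to 3067 under vehicle (2718), 1266 to 1477 persistent (1510), 7 to 299 called changes of the line difference (16), 4 to 128 narrowed (11), 2 to 163 emerged (5) and 0 to 8 widened (0). The lowest decitabine count came without resistant decitabine 2, and the highest counts of changes without parental vehicle 1. Called changes, narrowed, emerged and widened genes numbered 32, 17, 13 and 2 under upper-quartile scaling, 297, 105, 170 and 13 in DESeq2, and 1001, 381, 510 and 24 without a filter. With the 15 vehicle and decitabine libraries alone there was 1 called change, 1 narrowed and 0 emerged, and without both libraries apart on the second component 7, 4 and 3. A fit of the 7 decitabine libraries called 2160 line differences, and upper-quartile scaling put 61.3% of the calls higher (51.1% otherwise). The causes were not tested, except that fewer libraries were fitted in some settings. Among the counts and named genes recomputed under these settings, no called difference reversed. The median of 11 of 31 gene lists with at least 5 genes tested changed sign under at least 1 setting, all between -0.25 and 0.15 with all libraries, among them hypoxia (-0.08, and 0.03 without parental decitabine 1), chromosome 19 ZNF (-0.03, and 0.03 under upper-quartile scaling) and myeloid genes (-0.25, and 0.43 without parental decitabine 4). DESeq2 called 14 of the 16 changes and gave no adjusted p for ITGBL1 and FILIP1. Without resistant decitabine 2, 6 of the 16 changes and 1254 of the persistent genes were again called.

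With the replicate number as a block, the line difference under decitabine was called for 3535 genes, the line difference under vehicle for 2611, and 1393 persistent genes and 18 changes were called, with 11 narrowed, 7 emerged and 0 widened, and all 16 changes among them. Deviations of same-numbered decitabine libraries had correlations of 0.43, -0.02 and 0.29, so the numbers were not taken as pairs, and not every sample correlated best with its own number. Depth limits genes of a few counts, among them ABCB1, ABCB4 and TUBB3, which were not tested.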
